A study of Mus musculus with 6 samples.

Results

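The epithelial sodium channel and the genes through which aldosterone acts on it were examined as 9 genes among the 24346 listed in each library. They were chosen by name and were all found in the files: the channel subunits Scnn1a, Scnn1b and Scnn1g, the kinase Sgk1, the mineralocorticoid receptor gene Nr3c2, the enzyme gene Hsd11b2, the ubiquitin ligase gene Nedd4l, the sodium pump regulator Fxyd4 and the protease gene Prss8. RNA-seq had been carried out on the renal cortex of 6 C57BL/6 mice. All were kept for 8 weeks on the HF/HC/HS/BA diet, a feed whose components include much fat, cholesterol and bile salt. In 3 of them the diet also held tofogliflozin, which blocks SGLT2, the carrier that takes glucose back up in the proximal tubule. The labels name no pooling, and each library counts as 1 mouse. The other 3 had the diet alone, so no mouse on a standard diet enters the comparison. The sources used here do not give sex, age or the hour at which tissue was taken.

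The channel is built from an alpha, a beta and a gamma subunit and is the last step of sodium reabsorption along the nephron, in the apical membrane of connecting tubule and collecting duct principal cells. Aldosterone binds the mineralocorticoid receptor, which induces Sgk1. That kinase phosphorylates the ubiquitin ligase Nedd4l and so keeps the ligase from removing channels from the membrane. Hsd11b2 inactivates corticosterone, the glucocorticoid of the mouse, in these cells and leaves the receptor to aldosterone, and prostasin, encoded by Prss8, cleaves the channel and so activates it.

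The question was whether these genes differed between mice given tofogliflozin and mice on the diet alone. All 3 channel subunits, Sgk1 and Hsd11b2 were higher in every tofogliflozin library than in every diet library, by 1.22 to 1.36 times for the subunits and Hsd11b2 and by 2.30 times for Sgk1. Nr3c2, Nedd4l, Fxyd4 and Prss8 had overlapping groups. None of the 9 passed the test over all genes (0 of 9; limma on log2(FPKM + 1), two-sided, Benjamini-Hochberg adjusted p under 0.05 over 12248 genes), where 0.253% of all tested genes did. At an unadjusted limma p under 0.05, 5 of the 9 were higher and 0 lower, against 6.7% and 6.39% of all genes. In the same way, 5 of 9 had groups that did not overlap with tofogliflozin higher, against 9.63% of all genes. The median log2 change of the 9 was 0.28, and that of all tested genes was -0.0008. The 3 smallest adjusted p values, 0.0541 for Sgk1, 0.0644 for Scnn1g and 0.0803 for Scnn1a, lay between 0.05 and 0.1. At a threshold of 0.1 these 3 passed, where 1.24% of all genes did (0.898% higher).

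**Figure D1:**
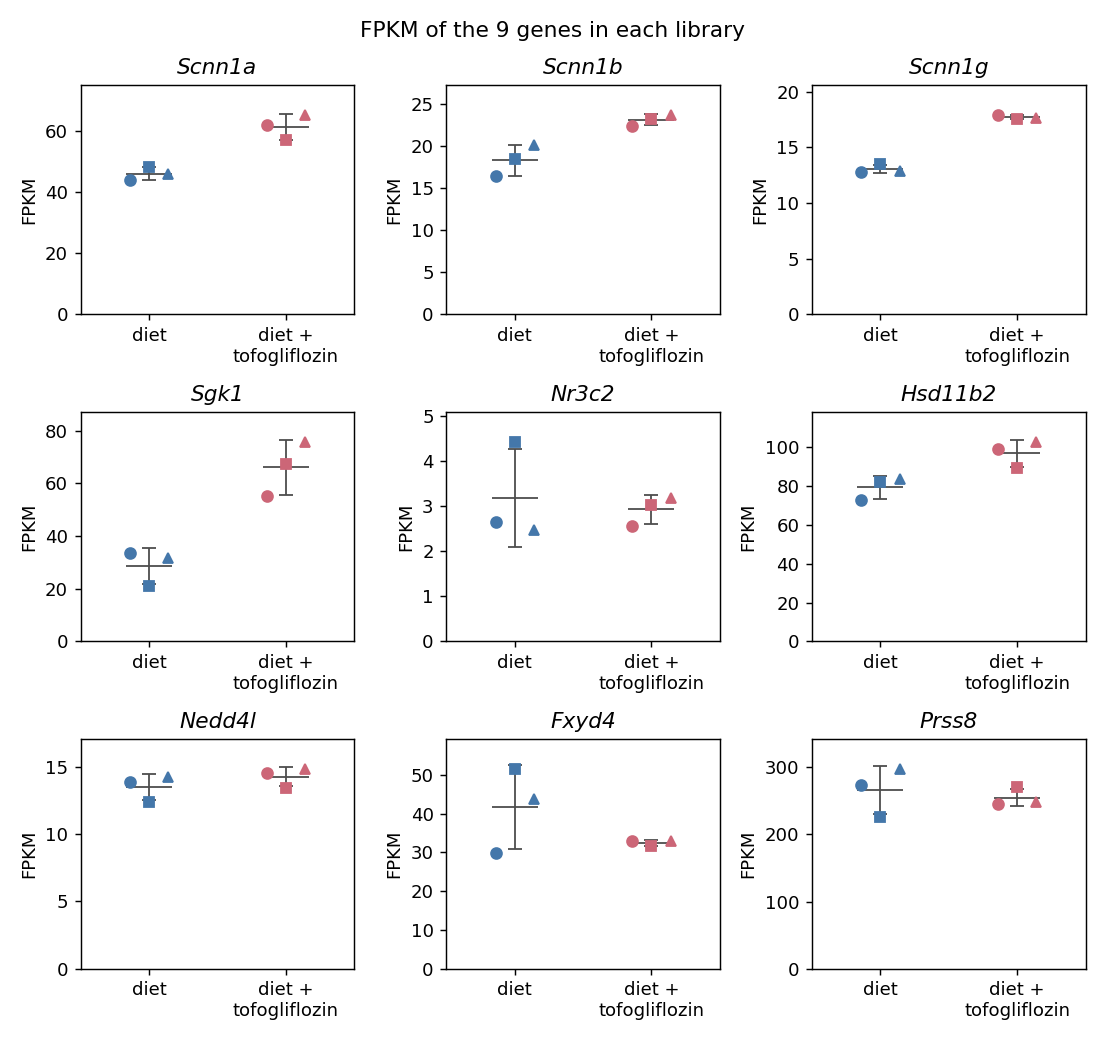
FPKM (vertical axis, from 0) of each of the 9 genes in the 3 diet and the 3 tofogliflozin libraries; circles, squares and triangles are replicates 1, 2 and 3, and the bar with whiskers is the mean ± SD. The groups are apart for Scnn1a, Scnn1b, Scnn1g, Sgk1 and Hsd11b2 and overlap for the other 4.

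The values are FPKM, fragments scaled by transcript length and library size, so levels of different genes can be set beside each other. Read counts are not analysed here. From the smallest steps between values of 193 single-transcript genes, each library held roughly 7670000 to 9950000 fragments. This takes FPKM as scaled by each library's own fragments, which the sources used here do not state. For tofogliflozin replicate 1, the highest, the quartiles of the estimate were 5810000 and 10300000. A 2 kb transcript at 1 FPKM then rests on 15.3 to 19.9 fragments, so of the 9 genes the one with the largest counting error is Nr3c2, the lowest of them. The upper quartile of FPKM over all genes was 10.5 to 10.6 in each library. The correlation of log2 values was 0.980 to 0.990 over the pairs of libraries.

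In the diet libraries the order of levels by mean FPKM was Prss8 (266), Hsd11b2 (79.3), Scnn1a (45.9), Fxyd4 (41.8), Sgk1 (28.7), Scnn1b (18.3), Nedd4l (13.5), Scnn1g (13.0) and Nr3c2 (3.18). The library values of Scnn1a and Fxyd4, of Fxyd4 and Sgk1, and of Nedd4l and Scnn1g overlapped, so these neighbours cannot be ordered. With tofogliflozin Sgk1 came after Prss8 and Hsd11b2, at a mean of 66.1 FPKM, and overlapped with Scnn1a at 61.3 FPKM. Scnn1g stood above Nedd4l there, at 17.7 against 14.3 FPKM, without overlap.

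Scnn1a encodes the alpha subunit, which the channel needs in order to conduct. Its diet libraries were at 43.8, 48.1 and 45.9 FPKM and its tofogliflozin libraries at 62.0, 56.8 and 65.2 FPKM. The lowest tofogliflozin library was thus above the highest diet library, and the means were 45.9 ± 2.14 and 61.3 ± 4.23 FPKM (SD, n = 3 each). The log2 change was 0.41 ± 0.08 (SE; 95% interval 0.23 to 0.59; limma adjusted p = 0.0803).

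Scnn1g, the gamma subunit gene, had the narrowest groups. It was at 12.8, 13.5 and 12.8 FPKM on the diet and at 17.9, 17.6 and 17.6 FPKM with tofogliflozin. Within each group the libraries differed by under 1 FPKM, and the group means, 13.0 ± 0.388 and 17.7 ± 0.179 FPKM (SD, n = 3 each), by more than 4 FPKM. The log2 change was 0.41 ± 0.07 (SE; 95% interval 0.26 to 0.57; limma adjusted p = 0.0644).

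Scnn1b, the beta subunit gene, was at 16.4, 18.4 and 20.1 FPKM on the diet and at 22.4, 23.3 and 23.7 FPKM with tofogliflozin. Diet replicate 3 came within 3 FPKM of the lowest tofogliflozin library, and the groups did not overlap. The log2 change was 0.33 ± 0.09 (SE; 95% interval 0.13 to 0.53; limma adjusted p = 0.184). Scnn1b lies across from Cog7, a gene of the opposite strand at 20.3 to 23.8 FPKM, but no exonic base is shared between them (0 bases).

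Because the subunits assemble into 1 channel, their ratio was taken within each library. The alpha to gamma ratio was 3.42, 3.56 and 3.58 in the diet libraries and 3.46, 3.23 and 3.70 with tofogliflozin. The groups overlapped, with a log2 difference of -0.02 (exact permutation test, two-sided, p = 0.8 and 0.8 adjusted over the 2 ratios). The beta to gamma ratio was 1.28, 1.37 and 1.57 on the diet and 1.25, 1.32 and 1.35 with tofogliflozin, also overlapping (log2 difference -0.10; exact permutation p = 0.4, and 0.8 adjusted). With 3 against 3 libraries this test cannot give a p below 0.1, so it does not show that the ratios were equal. Without tofogliflozin replicate 2 the alpha to gamma difference was 0.02, of the other sign. In all 6 libraries the alpha transcript was the most abundant of the 3 and the gamma transcript the least.

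Nedd4l, the ligase that acts on the channel, recognises a PY motif near the carboxyl end of each subunit. The coding bases of that motif are shown because Nedd4l, on which Sgk1 acts, meets the 3 subunits of these results there. They were read from the GENCODE M21 transcripts (GRCm38), 5′ to 3′, with the 4 codons of the motif in capitals.
Scnn1a: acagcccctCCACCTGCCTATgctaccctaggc
Scnn1b: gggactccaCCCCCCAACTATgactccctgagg
Scnn1g: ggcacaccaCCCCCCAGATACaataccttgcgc
An in-frame search for the codons of the PY motif found 1 match in the whole coding sequence of each subunit. In Scnn1a it covered codons 671 to 674 of 700, in Scnn1b codons 615 to 618 of 638 and in Scnn1g codons 630 to 633 of 655, so 20 to 26 codons followed it in each.

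Nedd4l itself was at 13.9, 12.4 and 14.3 FPKM on the diet and at 14.6, 13.5 and 14.9 FPKM with tofogliflozin. The groups overlapped (limma adjusted p = 0.746; log2 change 0.08, 95% interval -0.11 to 0.27). A gene antisense to Nedd4l shares 277 exonic bases with it, and whether counting used strand is not stated in the labels.

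Sgk1, the kinase that aldosterone and glucocorticoids both induce, had the largest difference of the 9 genes. Its level was 33.7, 20.9 and 31.6 FPKM in the diet libraries and 55.2, 67.3 and 75.7 FPKM in the tofogliflozin libraries. The highest diet library was more than 20 FPKM below the lowest tofogliflozin library, and diet replicate 2 was the lowest of all. The means were 28.7 ± 6.87 and 66.1 ± 10.3 FPKM (SD, n = 3 each), with a log2 change of 1.19 ± 0.18 (SE; 95% interval 0.77 to 1.61; limma adjusted p = 0.0541). Without diet replicate 2 the change was 0.98 and passed the test (limma adjusted p = 0.0329). In that fit 66 of all tested genes passed, against 31 with all 6 libraries. Over the 14 other settings the change ran from 0.98 to 1.32 and the adjusted p from 0.0329 to 0.213.

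The corticosteroid receptors bind a palindrome of inverted half-sites, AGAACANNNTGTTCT. The 250 bases before each annotated start were searched on both strands for it and for its half-site, AGAACA. The palindrome holds that half-site once on each strand, so it also counts under the half-site. RefSeq promoter windows (GRCm38.p6) were used for 5 of the 9 genes, Scnn1b, Scnn1g, Sgk1, Nr3c2 and Fxyd4, in 10 windows, 6 of them for Sgk1. The full palindrome was in 1 of the 10, a Sgk1 window, and in 3 of all 32851 windows (0.00913%). The windows below are those of Sgk1 that holds it, of the last annotated Sgk1 start, and of the subunit genes that have a window, shown since all of these genes were higher with tofogliflozin. All are on the plus strand, read 5′ to 3′, with half-sites and the palindrome in capitals.
Sgk1, chr10:21993640-21993889: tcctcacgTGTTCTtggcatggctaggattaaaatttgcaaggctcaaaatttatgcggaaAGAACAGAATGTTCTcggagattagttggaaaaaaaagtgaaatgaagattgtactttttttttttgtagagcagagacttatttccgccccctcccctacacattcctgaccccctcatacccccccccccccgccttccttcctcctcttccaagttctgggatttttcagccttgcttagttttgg
Sgk1, chr10:21994416-21994665: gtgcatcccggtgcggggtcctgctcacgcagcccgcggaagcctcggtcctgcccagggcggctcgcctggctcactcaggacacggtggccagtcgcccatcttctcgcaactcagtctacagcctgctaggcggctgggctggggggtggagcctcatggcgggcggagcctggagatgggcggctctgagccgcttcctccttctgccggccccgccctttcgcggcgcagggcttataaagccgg
Scnn1g, chr7:121734229-121734478: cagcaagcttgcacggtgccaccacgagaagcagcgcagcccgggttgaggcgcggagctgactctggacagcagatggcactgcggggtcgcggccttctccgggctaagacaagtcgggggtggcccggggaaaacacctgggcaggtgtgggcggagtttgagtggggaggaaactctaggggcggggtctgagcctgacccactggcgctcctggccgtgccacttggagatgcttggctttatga
Scnn1b, chr7:121864788-121865037: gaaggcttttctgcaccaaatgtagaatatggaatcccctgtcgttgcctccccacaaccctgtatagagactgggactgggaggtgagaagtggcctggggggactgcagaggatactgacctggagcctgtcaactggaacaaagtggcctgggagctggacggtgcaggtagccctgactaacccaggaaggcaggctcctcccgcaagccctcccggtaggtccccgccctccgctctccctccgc
The palindrome, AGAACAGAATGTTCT, lies at chr10:21993701-21993715, 189 bases before the start at its first base. Inside the Sgk1 gene, which spans chr10:21882184-21999903, the window overlaps 0 annotated exons. Half-sites alone are common: 16.1% of all windows hold at least 1. The Scnn1g and Scnn1b windows hold 0, as do those of Nr3c2 and Fxyd4, whose groups overlapped between diet and tofogliflozin. Sgk1 had 6 windows searched, more than any of these genes. These matches are letters in a window and not measured binding, and a value for the whole gene does not tell which Sgk1 start was used.

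Scnn1g and Scnn1b lie near each other on chromosome 7 (GRCm38), at 121734479 to 121768475 and 121865038 to 121918514, both on the plus strand and 96.6 kb apart, with 1 annotated gene between them. Scnn1a is on chromosome 6, from 125320659 to 125344943, and no annotated gene overlaps it or Scnn1g.

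Hsd11b2, which inactivates corticosterone, was at 72.6, 81.8 and 83.6 FPKM on the diet and at 98.9, 89.1 and 102.5 FPKM with tofogliflozin. Every tofogliflozin library was above every diet library, by at least 5 FPKM. The means were 79.3 ± 5.91 and 96.8 ± 6.93 FPKM (SD, n = 3 each), with a log2 change of 0.28 ± 0.09 (SE; 95% interval 0.09 to 0.48; limma adjusted p = 0.223).

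The receptor gene Nr3c2 was at 2.66, 4.42 and 2.47 FPKM on the diet and at 2.57, 3.03 and 3.19 FPKM with tofogliflozin. Diet replicate 2 was the highest of the 6 and the other 5 lay within 1 FPKM of each other. The log2 change was -0.06 (95% interval -0.47 to 0.34; limma adjusted p = 0.919), and it was 0.14 without diet replicate 2. The groups of the glucocorticoid receptor gene Nr3c1 also overlapped, with means of 16.2 and 14.1 FPKM (limma adjusted p = 0.559).

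Prss8, the prostasin gene and the most abundant of the 9, was at 274, 227 and 297 FPKM on the diet and at 246, 270.0 and 249 FPKM with tofogliflozin. All tofogliflozin libraries lay within the range of the diet libraries (log2 change -0.05; 95% interval -0.30 to 0.20; limma adjusted p = 0.880). Prss8 shares 122 exonic bases with Kat8 on the opposite strand, which was at 8.56 to 10.9 FPKM. Fxyd4, also known as corticosteroid hormone-induced factor, modulates the sodium pump of collecting duct cells. Its diet libraries were at 30.0, 51.5 and 43.8 FPKM and its tofogliflozin libraries at 33.0, 31.6 and 33.0 FPKM. The tofogliflozin libraries were close together and the diet libraries spread around them, with diet replicate 1 the lowest of the 6 (log2 change -0.32; 95% interval -0.71 to 0.07; limma adjusted p = 0.478).

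Because the channel is made in few cell types of the cortex, markers of these and other cells were set beside it. In bulk RNA, more cells of a type and more RNA per cell cannot be told apart. The summed level of the principal cell markers was 215 to 256 FPKM in the diet libraries and 271 to 340 FPKM in the tofogliflozin libraries. Groups were apart for 3 of these markers, the water channel genes Aqp2, Aqp3 and Aqp4. They overlapped for Avpr2, Gata3 and Tfcp2l1 (log2 changes of 0.09, 0.04 and 0.28), so the sum does not speak for every marker. Of 7 principal cell markers 6 were tested and all 6 had a log2 change above 0 (median 0.26), 3 at an unadjusted limma p under 0.05, and 0 passed over all genes. Aqp2, the apical water channel of principal cells, was at 75.6, 98.6 and 94.2 FPKM on the diet and at 114, 157 and 103 FPKM with tofogliflozin (limma adjusted p = 0.292). Aqp3, a basolateral water channel, was at 64.8 ± 4.03 and 77.1 ± 9.10 FPKM (SD, n = 3 each; limma adjusted p = 0.341). Elf5 stayed under 1 FPKM in all 6 libraries.

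The intercalated cells lie beside principal cells in the same ducts, and their 7 markers summed to 170 to 188 FPKM on the diet and 190 to 228 FPKM with tofogliflozin, also apart. All 7 had a log2 change above 0 (median 0.21), 3 at an unadjusted limma p under 0.05, and 0 passed over all genes. Foxi1, their defining transcription factor gene and the marker with the smallest change of the 7, was at 9.03 ± 2.70 and 9.50 ± 0.358 FPKM (SD, n = 3 each; limma adjusted p = 0.859). Marker sums of the distal convoluted tubule (1774 to 2385 and 2023 to 2325 FPKM), thick ascending limb (2216 to 2888 and 2415 to 2586 FPKM) and proximal tubule (3470 to 3844 and 3220 to 3479 FPKM) overlapped between diet and tofogliflozin. All 6 markers of the distal convoluted tubule, which also holds the channel in its late part, had a change above 0 (median 0.29; 3 at an unadjusted limma p under 0.05). S100g made up most of this segment's sum, at 1347, 1315 and 1911 FPKM on the diet and 1818, 1511 and 1577 FPKM with tofogliflozin. Groups were apart, tofogliflozin higher, for 1 of the 6, Calb1 (log2 change 0.37; limma adjusted p = 0.240). Slc12a3, Umod, Slc34a1 and Slc5a2, which define these segments, were at group means of 163.8 FPKM or more, and none passed (limma adjusted p = 0.546, 0.758, 0.490 and 0.746). Of the thick ascending limb markers 4 of 6 had a change above 0, and 1, lower with tofogliflozin, had an unadjusted limma p under 0.05. Of the proximal tubule markers 3 of 7 had a change above 0, with 1 higher and 1 lower at that p. The higher one was Slc5a12, a lactate transporter gene, with groups apart (log2 change 0.43; limma adjusted p = 0.199). Inner medulla markers summed to 12.5 to 27.3 FPKM on the diet and 20.2 to 28.6 FPKM with tofogliflozin, and the tissue is labelled renal cortex. Among them Slc14a2 was uneven, at 4.90, 17.0 and 8.24 FPKM on the diet and 5.64, 9.66 and 12.05 FPKM with tofogliflozin. The part of medullary tissue in the results was not tested. Macrophage marker sums were 107 to 292 FPKM on the diet and 89.4 to 137 FPKM with tofogliflozin, with all 7 markers below 0 (median log2 change -0.45), and diet replicate 2 the highest. Of 5 adrenal cortex markers 4 stayed under 1 FPKM in every library, among them Cyp11b2, the aldosterone synthase gene, which is listed at 0 in all 6.

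**Figure D2:**
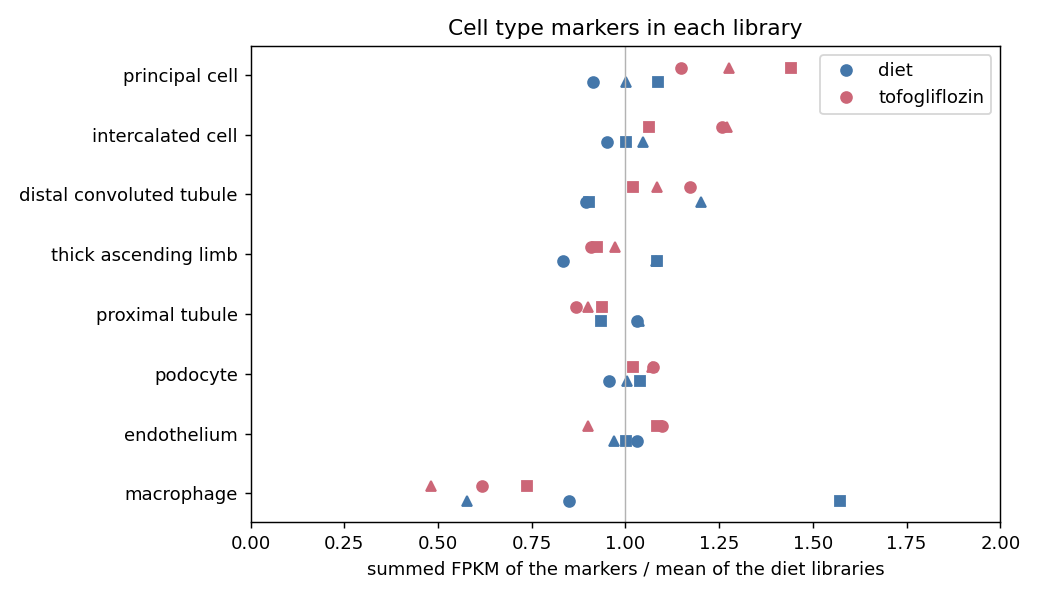
Summed FPKM of the markers of 8 cell types (rows) in each library, divided by the mean of the diet libraries (horizontal axis); circles, squares and triangles are replicates 1, 2 and 3. The principal cell and intercalated cell sums of all tofogliflozin libraries lie above those of all diet libraries. S100g makes up most of the distal convoluted tubule sum.

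Each gene was therefore also divided by the summed 6 tested principal cell markers of its own library, as a description with no test. The ratio of Scnn1a was 0.203, 0.188 and 0.194 in the diet libraries and 0.229, 0.167 and 0.217 with tofogliflozin. The groups, apart on the FPKM scale, overlapped in this ratio, with a log2 difference of 0.05. For Scnn1b, Scnn1g and Hsd11b2 the groups overlapped too, with log2 differences of -0.02, 0.08 and -0.07. The ratio of Sgk1 stayed apart, at 0.157, 0.0817 and 0.134 on the diet and 0.204, 0.198 and 0.252 with tofogliflozin, a log2 difference of 0.86. The ratio of Fxyd4 was lower in all tofogliflozin libraries, at 0.122, 0.0929 and 0.110 against 0.139, 0.201 and 0.186 (log2 difference -0.69). With Aqp2 left out of the markers, a choice made after seeing the data, the differences were 0.13 for Scnn1a, 0.06 for Scnn1b, 0.15 for Scnn1g and 0.93 for Sgk1, and Nr3c2 was then lower in all tofogliflozin libraries (-0.36). For Scnn1a, Scnn1b, Scnn1g and Hsd11b2, the part of the marker difference in the results was not tested.

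**Figure D3:**
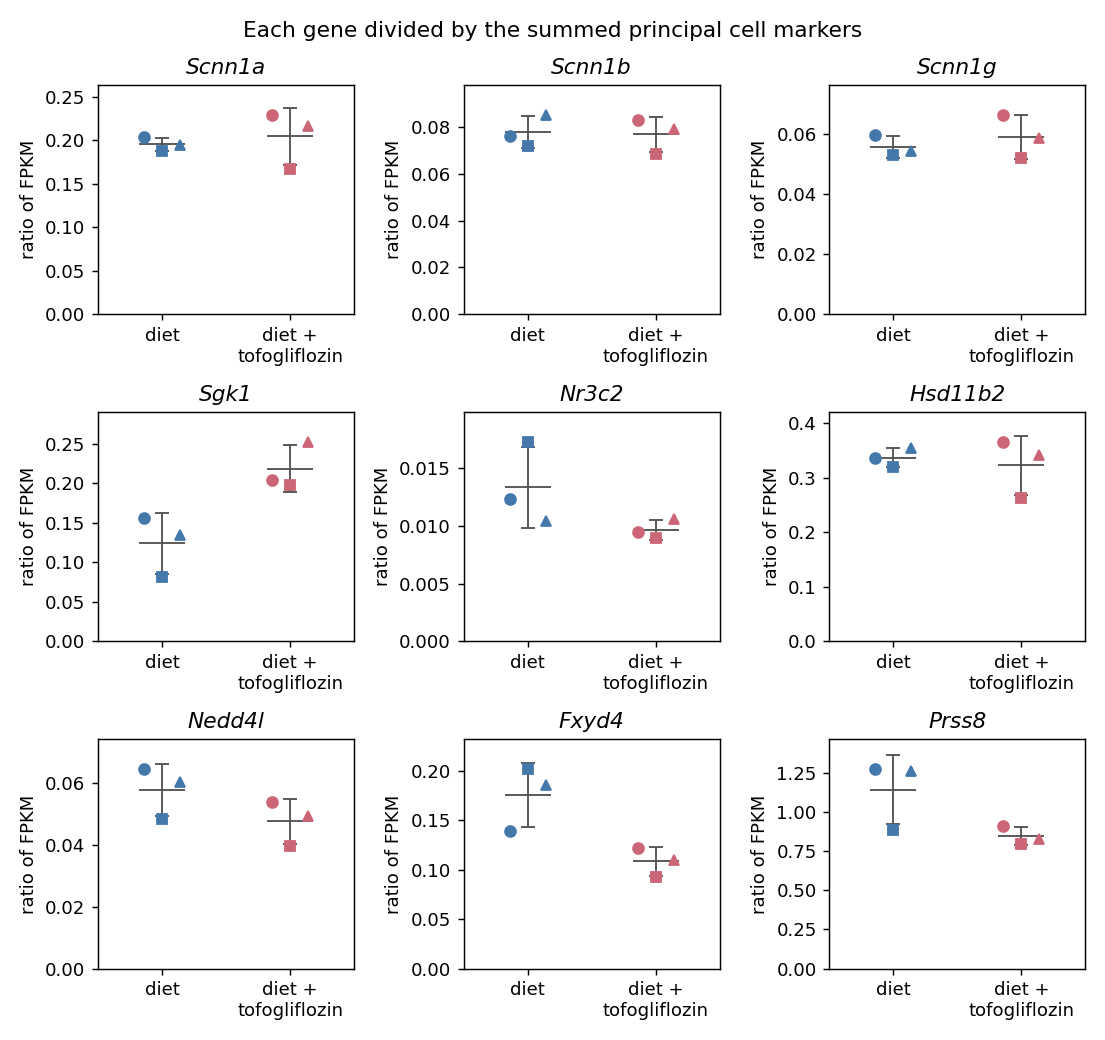
FPKM of each of the 9 genes divided by the summed FPKM of 6 principal cell markers of the same library (vertical axis, from 0), with the mean ± SD per group and replicates 1, 2 and 3 as circles, squares and triangles. Only Sgk1 and Fxyd4 have groups apart in this ratio among the 9 genes.

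The other genes of the pathway were 77 genes in 7 lists, of which 67 were tested. Scnn1d is not analysed here. Of the 67, 1 passed, higher, and 0 passed lower, against 0.196% and 0.0572% of all genes. At an unadjusted limma p under 0.05, 6 of the 67 were higher and 2 lower, against 6.7% and 6.39% of all genes. The groups did not overlap for 18 with tofogliflozin higher and 4 lower, against 9.63% and 8.86% of all genes. The median log2 change of the 67 was 0.10.

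Of 10 genes that corticosteroids induce 9 were tested, all with a change above 0 (median 0.20) and 3 at an unadjusted limma p under 0.05. The 1 that passed was Tsc22d3, whose product GILZ is induced by both steroids and favours channels at the membrane. Its libraries were at 29.9, 21.7 and 29.9 FPKM on the diet and at 60.0, 65.0 and 73.6 FPKM with tofogliflozin, and it rose by 1.26 ± 0.13 on the log2 scale (SE; limma adjusted p = 0.0188). Leaving out diet replicate 1 or any tofogliflozin library ended that call (limma adjusted p = 0.0511, and 0.0522, 0.0581 and 0.106 for tofogliflozin replicates 1, 2 and 3), as did testing without a filter (0.0761). Tsc22d3 was low in the same diet library as Sgk1, replicate 2, and highest in the same tofogliflozin library, replicate 3.

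Zbtb16, a zinc-finger repressor gene, was at 2.08, 2.16 and 0.877 FPKM on the diet and at 4.39, 4.12 and 6.78 FPKM with tofogliflozin (log2 change 1.18 ± 0.24 SE; limma adjusted p = 0.0926). Per1 is both a corticosteroid-induced gene and a part of the circadian clock. It was at 19.8, 9.22 and 23.6 FPKM on the diet and at 28.8, 32.0 and 35.7 FPKM with tofogliflozin (log2 change 0.93 ± 0.29 SE; limma adjusted p = 0.229). All 3 tofogliflozin libraries were above all diet libraries for both genes, and diet replicate 2 was again the lowest for Per1. Per1 was higher beside Sgk1 and Tsc22d3, and the part of the hour of sampling was not tested.

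None of 12 tested genes of receptors, steroid metabolism and receptor partners passed (limma; 0 higher and 2 lower at an unadjusted p under 0.05), and 10 had a change below 0 (median -0.12). Hsp90aa1, a chaperone that holds steroid receptors ready for ligand, was at 201, 156 and 180 FPKM on the diet and at 151, 128 and 122 FPKM with tofogliflozin (log2 change -0.41; limma adjusted p = 0.206). Hsp90ab1, its close relative, was at 639.8, 498 and 579 FPKM on the diet against 512, 479.6 and 445 FPKM (limma adjusted p = 0.384). Hsd11b1 regenerates active glucocorticoid, the reverse of Hsd11b2. It was at 150, 42.6 and 58.5 FPKM on the diet and at 37.8, 42.2 and 18.8 FPKM with tofogliflozin, with the diet libraries far apart (log2 change -1.19; limma adjusted p = 0.321). For Hsp90aa1 and Hsd11b1 every tofogliflozin library was below every diet library, for Hsd11b1 at 42.2 against 42.6 FPKM where nearest. Of this list 3 genes had groups apart with tofogliflozin lower and 0 higher, against 8.86% and 9.63% of all genes.

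Of 18 kinases, ubiquitin ligases and scaffolds that act on the channel none passed (limma; 1 higher and 0 lower at an unadjusted p under 0.05; median log2 change 0.04). The deubiquitinase gene Usp2 was at 66.1, 51.3 and 56.2 FPKM on the diet and at 68.8, 86.4 and 85.0 FPKM with tofogliflozin (log2 change 0.46 ± 0.12 SE; limma adjusted p = 0.181). Usp2 has an isoform that aldosterone induces, which whole-gene values cannot tell apart. Sgk3, a relative of Sgk1, was at 4.01 ± 0.273 and 4.79 ± 0.266 FPKM, and Nedd4, a relative of Nedd4l, at 76.1 ± 2.07 and 84.3 ± 5.50 FPKM (SD, n = 3 each; limma adjusted p = 0.385 and 0.447). The groups of both were apart, tofogliflozin higher.

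Among proteases and their inhibitors 12 of 13 were tested and none passed (limma; 2 higher and 0 lower at an unadjusted p under 0.05; median 0.16). Plat, tissue plasminogen activator, was at 32.8, 23.7 and 31.1 FPKM on the diet and at 41.2, 33.5 and 46.1 FPKM with tofogliflozin (limma adjusted p = 0.251). St14, the gene of matriptase, was at 14.1, 14.6 and 13.3 FPKM and at 14.9, 16.1 and 16.9 FPKM (limma adjusted p = 0.386). For both genes every tofogliflozin library was above every diet library.

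The list of potassium channels, WNK kinases with their partner kinases and ubiquitin ligase, and chloride transporters of the distal nephron gave 11 tested genes of 13, all with a change above 0 (median 0.13), none passing (limma; 0 at an unadjusted p under 0.05). Wnk1, Stk39 and Wnk4 had log2 changes of 0.21, 0.23 and 0.17 with overlapping groups (limma adjusted p = 0.419, 0.463 and 0.482). Of the other FXYD genes 4 of 6 were tested and none passed (limma; 0 at an unadjusted p under 0.05): Fxyd1, Fxyd5 and Fxyd6 had limma adjusted p = 0.807, 0.603 and 0.603. Fxyd1 ran from 2.27 to 8.12 FPKM within the diet group alone. In the wider family of the channel only Asic1 was above the filter, at 1.25 ± 0.343 and 1.48 ± 0.0964 FPKM (SD, n = 3 each; limma adjusted p = 0.709).

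**Figure D4:**
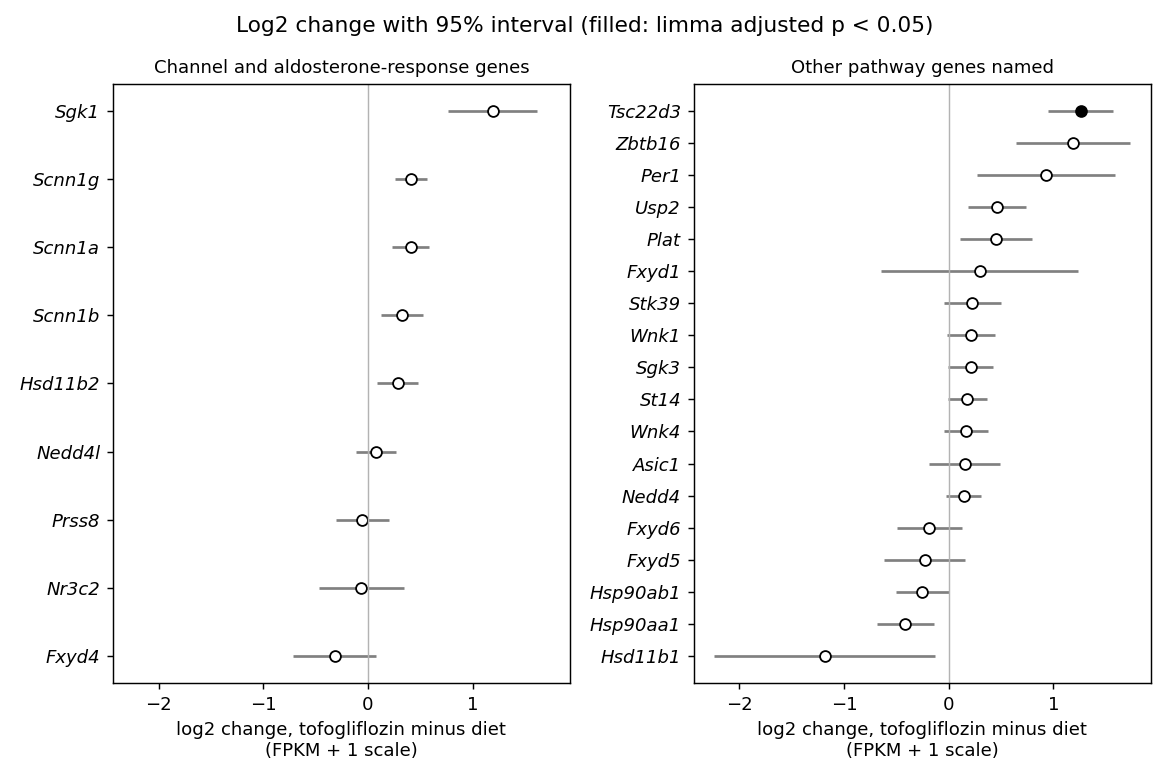
Log2 change, tofogliflozin minus diet, on the FPKM + 1 scale (horizontal axis) with limma's 95% interval, for the 9 genes (left) and the other pathway genes named (right); a filled point passed at an adjusted p under 0.05. Tsc22d3 is the 1 filled point, and the intervals of Sgk1, the 3 subunits and Hsd11b2 lie above 0.

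The genes most like Scnn1a and Sgk1 across the 6 libraries were sought among 8661 other genes with a mean of at least 5 FPKM, by the root mean square difference of log2 values centred on each gene's mean. Nearest to Scnn1a were Cav2 (0.03), Bcat2 (0.03) and Utp20 (0.04), where Scnn1a itself varied by 0.22. Cav2 was at 9.53, 11.0 and 9.87 FPKM on the diet and at 13.7, 12.9 and 14.4 FPKM with tofogliflozin. Nearest to Sgk1 were Tsc22d3 (0.09), Angptl4 (0.16) and Rasl12 (0.17), where Sgk1 itself varied by 0.64. Angptl4 was at 47.1, 33.0 and 47.0 FPKM on the diet and at 72.7, 109 and 140 FPKM with tofogliflozin, so it had the same lowest and highest libraries as Sgk1. With 6 libraries and this many genes such nearness is a description only.

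The side of the threshold on which the 9 genes fell depended on the setting in 2 of 14 other fits. With libraries weighted by their fit, Sgk1, Scnn1g and Scnn1a passed, all higher (limma adjusted p = 0.0350, 0.0350 and 0.0420). Without diet replicate 2 Sgk1 passed. Over all tested genes 123 passed with these weights and 66 without diet replicate 2, against 31 in the main fit. Scnn1b, Hsd11b2, Nedd4l, Fxyd4 and Prss8 passed in none of the 14 and Nr3c2 in none of the 13 in which it was tested, and the changes of the 3 subunits, Sgk1 and Hsd11b2 were above 0 in every one.

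**Figure D5:**
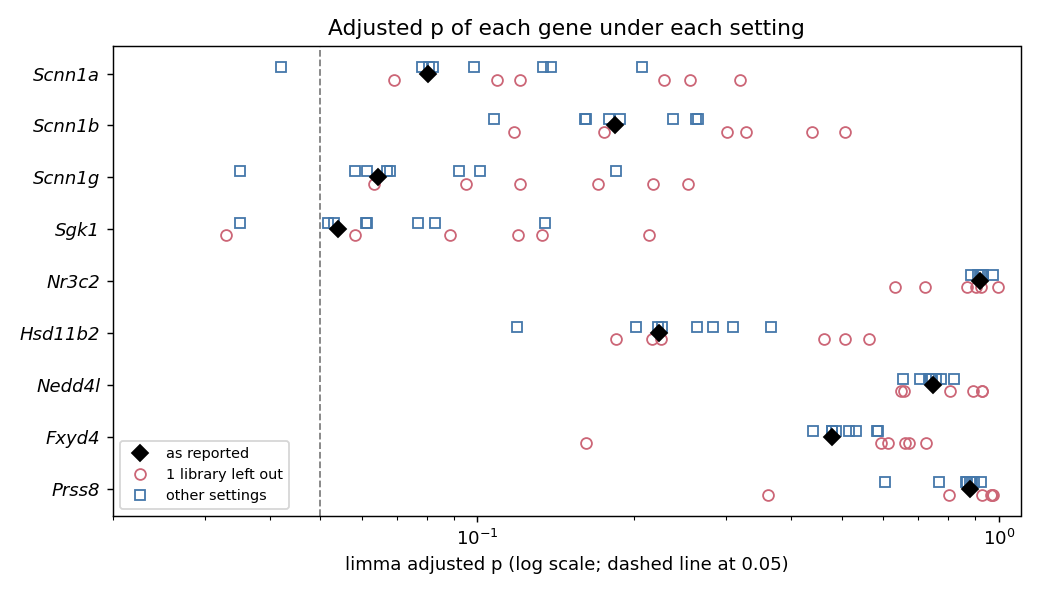
Limma adjusted p (horizontal axis, log scale) of each of the 9 genes as reported (black diamonds), with 1 library left out (open circles) and under the other settings (open squares); the dashed line is 0.05. Points of Sgk1, Scnn1g and Scnn1a lie left of the line in at least 1 setting, and no point of the other 6 genes does.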

How the data were processed

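RNA of the renal cortex was sequenced from 3 diet and 3 tofogliflozin mice, with groups and replicate numbers from the labels. The deposited values are FPKM per gene and library, per the file headers. The submitters' processing notes name mm10 and, without roles, Cuffdiff 2.2.1, TopHat2 2.1.1, SAMtools 0.1.18 and Bowtie2 2.2.8. For annotation, use of strand and scaling, the sources used here give nothing. Libraries came from a strand-specific kit, per the labels' protocols.

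The 12248 genes that reached 1 FPKM in 3 or more of the 6 libraries were put on the log2(FPKM + 1) scale, which understates changes of low genes; all 9 members did. The test was limma 3.58.1, run in R 4.3.3 (trend, two-sided, Benjamini-Hochberg over all tested genes, threshold 0.05); figures used matplotlib 3.10.9. The fit was tested on simulated data. Named genes are the 9 members, the 3 of smallest p and any past the threshold in each of 7 lists, 7 marker genes, and the 3 nearest genes to Scnn1a and Sgk1; 1 gene under this rule is not reported here, and Nr3c1, Slc5a12, Elf5 and Cyp11b2 were chosen after their values were seen. Alternatives were another pseudocount, filter, scaling, variance model, library weights, a replicate block and leaving out each library. P-values measure the spread between these mice. The members, lists, tests and alternatives were chosen with earlier results of these data known.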

Additional observations from a re-analysis of the deposited data

How the results depend on the processing

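Of the single-gene results under the alternatives, 372 kept their direction and side of the threshold, 4 passed it newly, 5 lost it and 5 changed sign. The 5 losses were all of Tsc22d3, the only one of these genes to pass in the main fit, which passed in 9 of 14 other settings. The other genes had not passed to begin with, so the 372 is no measure of how stable a call is. The 9 genes gave 0 calls; there were 3 with array weights and 3 at a threshold of 0.1, and leaving out 1 library gave 0 to 1. The other pathway genes gave 1 call, 0 without a filter and 2 at a threshold of 0.1, with 0 to 1 when 1 library was left out. The log2 change of Nr3c2 was 0.0142 with array weights, and with 1 library left out it ran from -0.1832 to 0.1393, with 0.0055 without tofogliflozin replicate 1. That of Prss8 ran from -0.1629 to 0.0325 and that of Fxyd1 from -0.0496 to 0.6906 over the same omissions. The log2 difference of the alpha to gamma ratio ran from -0.0726 to 0.0244 with 1 library left out. The cause was not tested. With the replicate block the 9 genes again gave 0 calls and the other pathway genes 1, and all genes 26 against 31. Same-numbered libraries did not deviate together (correlations of -0.05, -0.06 and 0.05). The labels state no pairing, and these correlations cannot show how the mice were numbered. Over all genes the count of calls was 1 without a filter, 20 at a filter of 5 FPKM, 123 with array weights and 2 to 66 with 1 library left out. Nr3c2 was not tested at the filter of 5 FPKM. Depth limits Nr3c2 most.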
